A study of Pinctada fucata with 15 samples.

Results

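A group of shell matrix proteins of the pearl oyster *Pinctada fucata*, grouped under the prismatic layer, the outer, calcitic layer of the shell, was followed from the egg to the juvenile through 4 array probes of 58883. The probes were taken by name from the list of shell genes that the study annotated on its array: Prismalin-14 (CUST_53622_PI429347424), Prisilkin-39 (CUST_36021_PI429347424), an entry annotated only as shell matrix protein (CUST_44067_PI429347424) and the prismatic and nacreous layer 88 kDa protein (CUST_367_PI429347424). Other probes are given by the first part of such identifiers. The last of the 4 is named for both layers, and the annotation of the third does not name a layer. The array identifiers of the 4 name unigenes, the assembled transcripts that the probes were designed from. The study states that these came from adult mantle tissue. Whole eggs, larvae or juveniles were pooled, RNA was labelled with a single dye, and 3 pools were hybridised per stage. The stages were fertilized eggs (O, 0 h after insemination), trochophore stage (T, 17 h), D-shaped stage (D, 48 h), umbonal stage (U, 14 days) and juvenile (J, 35 days), with no treatment or allele at any of them. Staging was by microscope and did not require every animal to be at the named stage, so a pool can hold animals of neighbouring stages.

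The prismatic layer is built of columns of calcite set in an organic framework of chitin and proteins, which the edge of the mantle secretes. The larva has an earlier and simpler shell. Prodissoconch I appears at about the D-shaped stage and Prodissoconch II at the umbonal stage, and the dissoconch of the juvenile is the first shell with a prismatic and a nacreous layer. Prismalin-14 is an acidic protein with repeated short motifs that lies in the framework between the prisms and binds chitin. Prisilkin-39 is a silk-like protein, rich in glycine, tyrosine and serine, that binds chitin and calcite. The 88 kDa protein is known from the proteins of both shell layers, and the role of the shell matrix protein is not given by its name.

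The array software gives each spot a background-corrected signal in arbitrary units and a flag that says whether it was well above background. The signals were put on the log2 scale and quantile-normalised, which gives every array the same distribution of values, so that 1 unit of log2 is a 2-fold difference. All changes between stages come from limma fitted to the 15 arrays, with the standard error (SE) and the p-value adjusted by the Benjamini-Hochberg method over all tested probes. Testing required a probe to exceed background clearly on every array of either stage compared, and a call required an adjusted p under 0.05 together with a 2-fold or larger change. The SE and p-values rest on the spread between pools of the same stage, estimated jointly over all stages. Stages outside a comparison thus contribute to its error. The separate origin of the 3 pools of a stage is not described further. The files give signals and no counts, so that the number of arrays limits the precision. In whole-animal pools, fewer cells of a type and less RNA per cell cannot be told apart. No cell type was labelled or could be checked by a marker.

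Signals differed between the arrays as a whole. Spots flagged as well above background made up 89.3% to 91.2% of probe spots in juveniles and 53.3% to 65.6% in fertilized eggs, with the larval arrays between 61.8% and 91.3%. Fertilized eggs, the trochophore stage and 2 pools of the D-shaped stage lay on slide 1, and slide 2 carried juveniles, umbonal larvae and D-shaped pool 3, so both sides of the juvenile against umbonal comparison shared a slide. Juveniles and the 2 earliest stages did not, and there slide and stage cannot be told apart. Fits with the slide as a block take the slide difference from the D-shaped stage alone, with only pool 3 on slide 2. No probe spot was saturated. In egg pool 1, 18147 probes (30.8%) carried exactly the same signal of 15.35, which marks the lower end of that array, whereas in the other arrays no value was shared by more than 6 probes.

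Prismalin-14 was low in eggs and all larvae and high in every juvenile pool. Its signal was 39280, 40750 and 32540 in the juvenile pools, against 132, 94.0 and 101 in the umbonal pools. On the normalised log2 scale, the stage means were 7.39 ± 0.64 in eggs, 6.63 ± 0.43 in trochophores, 6.20 ± 0.81 in D-shaped larvae, 5.97 ± 0.06 in umbonal larvae and 14.98 ± 0.13 in juveniles (SD, n = 3 each). The 3 juvenile values lay together and far above the other 12 arrays. Pool by pool, the log2 values were 6.71, 7.51 and 7.97 in eggs, 6.15, 6.76 and 6.98 in trochophores, 6.68, 6.65 and 5.27 in D-shaped larvae, 6.03, 5.96 and 5.93 in umbonal larvae and 14.96, 15.12 and 14.86 in juveniles, so that eggs overlapped with trochophores and trochophores with D-shaped larvae. The lowest juvenile pool exceeded the highest other pool, an egg pool, by a factor of 119. The egg, trochophore and D-shaped pools spread more widely than the umbonal pools. Relative to umbonal larvae, juveniles were 515-fold higher (log2 change 9.01, SE 0.38, 95% CI 8.20 to 9.82, adjusted p = 8.4e-10), and 100 of the 52477 probes tested at this transition had a larger change.

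Prisilkin-39 was likewise high in every juvenile pool, but its probe was well above background on all 15 arrays. The signal was 79900, 78620 and 67500 in the juvenile pools and 697, 617 and 474 in the umbonal pools. The log2 means were 9.39 ± 0.96 in eggs, 8.72 ± 0.27 in trochophores, 8.92 ± 0.25 in D-shaped larvae, 8.56 ± 0.29 in umbonal larvae and 15.97 ± 0.10 in juveniles (SD, n = 3 each). Before the juvenile stage the arrays of neighbouring stages overlapped, with log2 values of 9.03, 8.55 and 8.59 in the trochophore pools, 8.998, 9.11 and 8.63 in the D-shaped pools and 8.62, 8.83 and 8.25 in the umbonal pools. The widest spread was among the eggs, where pool 3 stood at 10.49 and pools 1 and 2 at 8.66 and 9.04. Relative to umbonal larvae, juveniles were 170-fold higher (log2 change 7.41, SE 0.36, 95% CI 6.63 to 8.19, adjusted p = 3.5e-09). The lowest juvenile pool was 41.3-fold above the highest earlier pool, again egg pool 3.

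The shell matrix protein followed the same course, and its changes had the smallest standard errors of the 4 members. Its signal was 78070, 67030 and 49680 in the juvenile pools and 393, 307 and 322 in the umbonal pools. The log2 means were 8.43 ± 0.54 in eggs, 8.03 ± 0.11 in trochophores, 8.16 ± 0.28 in D-shaped larvae, 7.72 ± 0.06 in umbonal larvae and 15.73 ± 0.26 in juveniles (SD, n = 3 each). Its pools stood at log2 values of 8.05, 8.19 and 9.05 in eggs, 8.07, 7.90 and 8.11 in trochophores, 8.20, 8.41 and 7.86 in D-shaped larvae, 7.72, 7.78 and 7.65 in umbonal larvae and 15.94, 15.81 and 15.43 in juveniles. All 15 arrays showed it well above background, and the juvenile arrays did not overlap with any earlier array. Relative to umbonal larvae, juveniles were 258-fold higher (log2 change 8.01, SE 0.24, 95% CI 7.49 to 8.53, adjusted p = 4.8e-11). The lowest juvenile pool was 83.6-fold above the highest earlier pool, egg pool 3.

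The 88 kDa protein differed from the other members in that its probe was dim throughout. It was not well above background on any of the 12 arrays before the juvenile stage, and was well above it on all 3 juvenile arrays. A less strict flag of the array software, for a signal that is positive and significant over background, was set on 7 of the 12, among them all 3 umbonal arrays. Its signal was 87.2, 89.6 and 99.3 in the juvenile pools, against 18.7, 18.3 and 14.4 in the umbonal pools. The earlier arrays ranged from 7.82 to 21.5, and the egg pool 1 value was the 15.35 that so many probes shared. On the raw scale the juvenile pools were thus clear of all others, whereas with quantile normalisation they were not. The quantile-normalised log2 values were 4.97, 5.20 and 5.45 in the juvenile pools, and egg pool 3, not well above background, stood at 5.20. With each array shifted to its own 75th percentile the juvenile pools were clear, at -4.89 to -4.38 against at most -6.18 earlier. Relative to umbonal larvae, juveniles were at least 2.39-fold higher (adjusted p = 0.019). Such a bound is given where a stage was not well above background on any array, and sets the juvenile mean against the higher of the probe's own value and the lowest signal well above background on each of those arrays. The call was lost without umbonal pool 1 (log2 change 1.29, adjusted p = 0.059) or without juvenile pool 3 (1.25, adjusted p = 0.065). It was also lost with the normexp background correction, which models each signal as background plus true signal, where the log2 change was 0.42 (adjusted p = 0.016, under 2-fold). With each array shifted to its own 75th percentile the change was 2.34 and called (adjusted p = 1.1e-05).

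**Figure D1:**
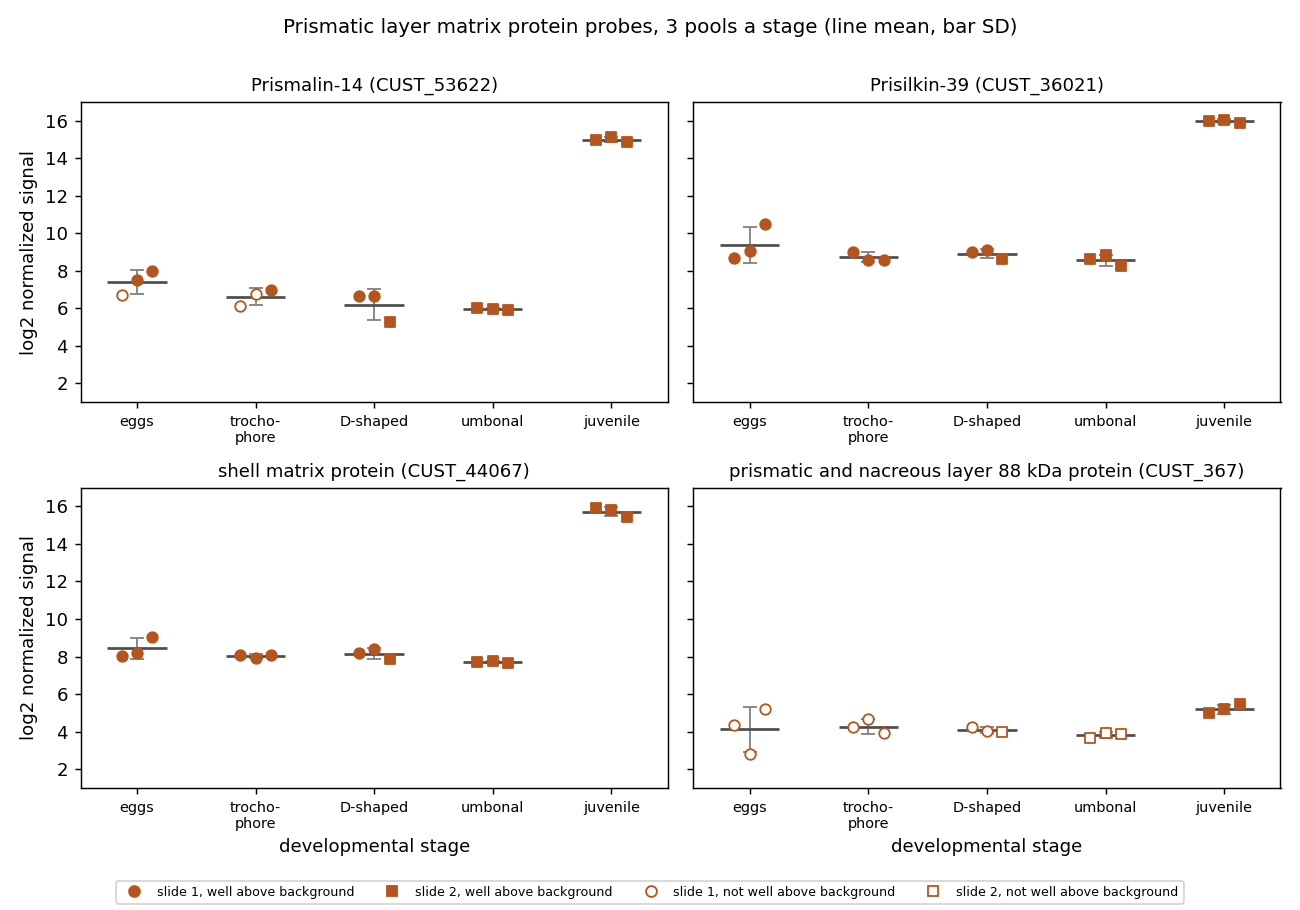
Log2 normalised signal (vertical axis) of the 4 prismatic layer matrix protein probes at the 5 stages (horizontal axis), with 1 point per pool, a line at the mean and a bar for the SD of 3 pools. Circles are arrays of slide 1 and squares arrays of slide 2, and open symbols mark arrays on which the probe was not well above background. The juvenile means of Prismalin-14, Prisilkin-39 and the shell matrix protein lay at 14.98, 15.97 and 15.73, far above every earlier array, and the 88 kDa protein carried the flag for well above background on the 3 juvenile arrays only.

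At J/U, all 4 members were called higher, or 3 of them with the normexp background correction, which took the 88 kDa protein below 2-fold. The 88 kDa protein could be tested only through its juvenile arrays, so its call is a description and no independent evidence. Of the 52477 probes tested there, 29.4% were called in either direction and 13.5% were called higher. The median log2 change of the members was 7.71, and that of all tested probes -0.11. Prismalin-14, Prisilkin-39 and the shell matrix protein had all 3 juvenile arrays above all 12 others, as did 13.7% of the 51445 probes well above background on every juvenile array.

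Before the juvenile stage no member was called at any transition between neighbouring stages. At T/O, 2 of the 4 members could be tested and 0 were called, where 53.1% of all tested probes were. The log2 change was -0.67 for Prisilkin-39 (SE 0.35, adjusted p = 0.099) and -0.40 for the shell matrix protein (SE 0.23, adjusted p = 0.13). At D/T, 3 could be tested and 0 were called, against 33.6% of all tested probes. Prismalin-14 changed by -0.43 (95% CI -1.23 to 0.37), Prisilkin-39 by 0.19 (-0.58 to 0.96) and the shell matrix protein by 0.13 (-0.37 to 0.64). At U/D, 3 could again be tested and 0 were called, against 32% of all tested probes. The changes were -0.23 for Prismalin-14 (95% CI -1.04 to 0.58), -0.35 for Prisilkin-39 (-1.13 to 0.43) and -0.44 for the shell matrix protein (-0.95 to 0.07). These intervals reach a 2-fold change for Prismalin-14 and Prisilkin-39 at one or more transitions, so a change of that size was not excluded there. The T/O result depends on single egg pools. Without egg pool 1, 2 members were called lower in trochophores, Prisilkin-39 (log2 change -1.04, adjusted p = 0.013) and Prismalin-14 (-1.11, adjusted p = 0.015), which could be tested without that pool. Without egg pool 3, the highest egg pool of both probes, the T/O changes were -0.13 for Prisilkin-39 and -0.09 for the shell matrix protein.

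**Figure D2:**
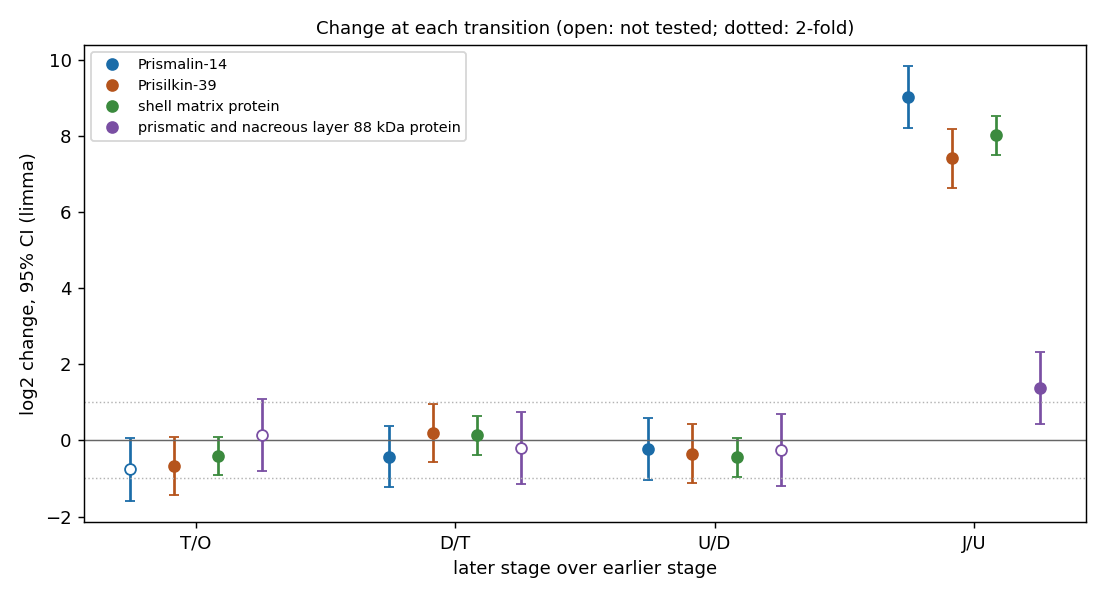
Log2 change of the 4 probes (vertical axis, limma estimate with 95% CI) at each transition, later stage over earlier stage (horizontal axis: T/O, D/T, U/D and J/U). Open points could not be tested and dotted lines mark a 2-fold change. The estimates for neighbouring stages before the juvenile lay between -0.76 and 0.19, and those at J/U between 1.37 and 9.01.

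The order of the levels before the juvenile stage depended on how the arrays were scaled. These levels were low beside those of juveniles. Among all probes in umbonal larvae, 30.7% were dimmer than Prismalin-14, 56.7% than Prisilkin-39 and 48.3% than the shell matrix protein. With quantile normalisation Prismalin-14 was lower in D-shaped larvae than in eggs (6.20 and 7.39, log2 change -1.19, SE 0.37, adjusted p = 0.0095) and lower in umbonal larvae than in eggs (5.97 and 7.39, log2 change -1.42, SE 0.37, adjusted p = 0.0033). At D/O 30.5% of tested probes were called lower (61% in either direction), and at U/O 31.4% (64.5% in either direction). With each array shifted to its own 75th percentile instead, the changes were -0.25 and -0.35 and neither was called. Scaling to 8 probes of spiked-in control RNA turned the direction, with 0.78 at D/O (not called) and 1.08 at U/O (called, adjusted p = 0.035). That scaling moved the median of all tested probes by more than 1 unit at each of these comparisons, to 1.15 and 1.75, against -0.06 and 0.04 with quantile normalisation. The umbonal signals of Prismalin-14 before normalisation, 94.0 to 132, were at or above the egg signals of 35.1, 75.3 and 94.0. For the shell matrix protein the umbonal mean was 0.71 below the egg mean (SE 0.24, adjusted p = 0.014), less than 2-fold and so not called, and for Prisilkin-39 it was 0.83 below (SE 0.36, adjusted p = 0.048), not called either. At U/T, the changes of the same 3 probes were -0.66, -0.16 and -0.31 for Prismalin-14, Prisilkin-39 and the shell matrix protein, with adjusted p values of 0.13, 0.71 and 0.26, where 49.7% of tested probes were called. In the ordering of stage means, juveniles thus stood apart from all others for these 3 probes, and no other pair of neighbouring stages passed the test. The umbonal pools of the shell matrix protein lay below all D-shaped pools, by a mean difference that did not pass it.

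**Figure D3:**
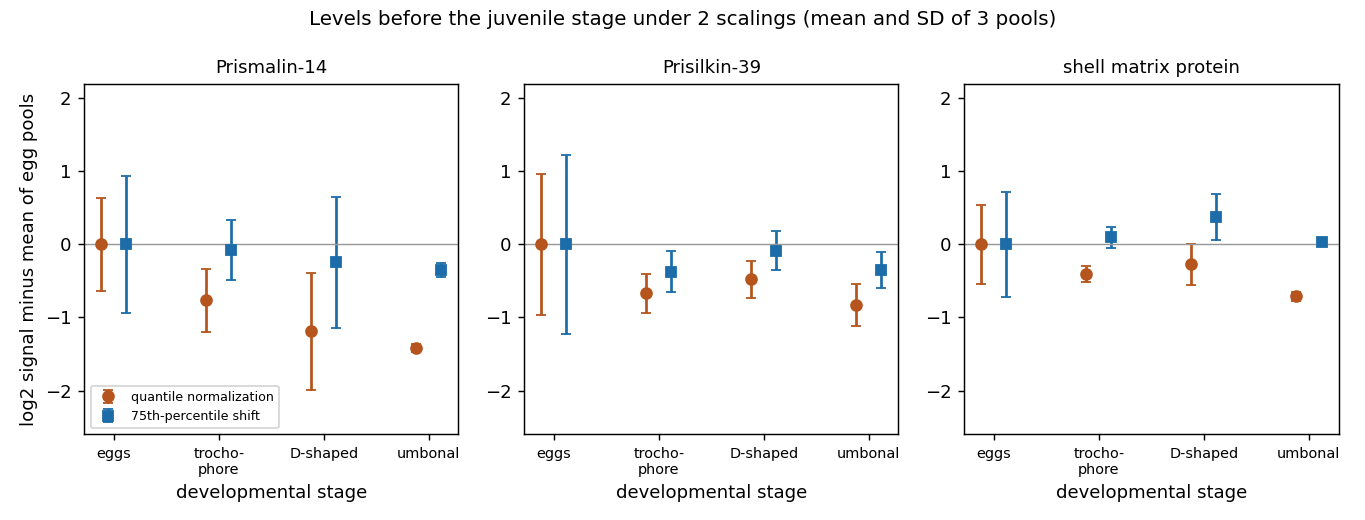
Mean log2 signal of Prismalin-14, Prisilkin-39 and the shell matrix protein relative to the mean of the egg pools (vertical axis) at the stages before the juvenile (horizontal axis), with bars for the SD of 3 pools. Circles are quantile-normalised values and squares values shifted to the 75th percentile of each array. The umbonal mean of Prismalin-14 lay 1.42 below that of eggs with quantile normalisation and 0.35 below with the percentile shift.

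The D-shaped values of Prismalin-14 split by slide. The pool on slide 2 stood at 5.27, and both pools on slide 1 at 6.68 and 6.65. Without the slide 2 pool, D/T changed by 0.04 (adjusted p = 0.93) and D/O by -0.73 (adjusted p = 0.047), which is under 2-fold. Within slide 2, the umbonal pools were 0.70 above the single D-shaped pool, which is under 2-fold. For Prisilkin-39 the slide 2 pool stood at 8.63, against 8.998 and 9.11 on slide 1, and for the shell matrix protein at 7.86, against 8.20 and 8.41. On the quantile-normalised scale the slide 2 pool was thus the lowest D-shaped pool of all 3 probes. Before normalisation it was the lowest for Prismalin-14 only (61.6, against 95.7 and 76.6). Its signal was the highest for Prisilkin-39 (624, against 438 and 374) and the shell matrix protein (368, against 259 and 238). The part of the slide in this was not tested.

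Egg pool 3 was the highest of the egg pools for Prismalin-14, Prisilkin-39 and the shell matrix protein. It stood above the mean of the other egg pools by 0.86 for Prismalin-14, where egg pool 1 was not well above background, by 1.64 for Prisilkin-39 and by 0.93 for the shell matrix protein on the log2 scale. The 88 kDa protein was not well above background in any egg pool, and its egg pools are not ranked. Over all 58883 probes, this pool was the highest for 34.8%, with a median difference of -0.01. Among the 1002 probes called at least 20-fold higher in juveniles than in umbonal larvae, it was the highest for 46.9%. The cause was not tested. Leaving the pool out gave J/O changes of 7.88 for Prismalin-14, 7.12 for Prisilkin-39 and 7.61 for the shell matrix protein.

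Juveniles were also set against the 3 other stages. These comparisons and J/U share the same 3 juvenile arrays and are not independent of one another. At J/O all 4 members were called higher, against 32.4% of tested probes (65.2% in either direction). The 88 kDa protein could be tested at J/O, J/T and J/D only through its juvenile arrays, as could Prismalin-14 at J/O and J/T. Calls of the 88 kDa protein are thus a description and no independent evidence. The fold was 193 for Prismalin-14 (adjusted p = 5.2e-10), 95.4 for Prisilkin-39 (adjusted p = 1.4e-09) and 157 for the shell matrix protein (adjusted p = 1.5e-11). The 88 kDa protein was called there (log2 means 5.21 ± 0.24 in juveniles and 4.13 ± 1.21 in eggs, adjusted p = 0.035), but its arrays overlapped with egg pool 3 and no fold is given, since the bound was below 1. The call was lost without egg pool 2 (log2 change 0.43, adjusted p = 0.17), juvenile pool 2 (adjusted p = 0.069) or juvenile pool 3 (adjusted p = 0.10), and with the slide as a block (log2 change 1.26, adjusted p = 0.19). At J/T, 3 members were called higher, against 25.8% of tested probes (56.2% in either direction), by 327-fold for Prismalin-14, 152-fold for Prisilkin-39 and 208-fold for the shell matrix protein. The 88 kDa protein was not called (log2 change 0.93, adjusted p = 0.068). At J/D all 4 were called higher, against 20.8% of tested probes (45.1% in either direction), by 440-fold, 133-fold and 190-fold for the same 3 probes in that order and by at least 1.42-fold for the 88 kDa protein (adjusted p = 0.035). The last call was lost in 5 of the 6 fits that left out 1 array, those without any one of the D-shaped pools, without juvenile pool 2 or without juvenile pool 3, with adjusted p values of 0.054 to 0.10. It was lost as well with the slide as a block (log2 change 1.25, SE 0.64, adjusted p = 0.12).

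Other unigenes of the same genes were on the array, 1 of Prismalin-14 and 3 of Prisilkin-39. The study listed them because they rose in the juveniles of these samples, so their J/U change is a description and no independent evidence. The second Prismalin-14 probe (CUST_52129) was not well above background on any earlier array, with signals of 3.83 to 22.7, and reached 28350, 24950 and 22850 in the juvenile pools. Juveniles were at least 1590-fold higher than umbonal larvae. The first Prismalin-14 probe, in contrast, was well above background on 9 of the 12 earlier arrays, so that the probes disagree on whether the transcript was detected before the juvenile stage.

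The probes of Prisilkin-39 disagreed in the same way. Of the 12 earlier arrays, CUST_49427 was well above background on 0, CUST_43006 on 1 (an umbonal array), CUST_42173 on 5 and CUST_36021 on 12. In juveniles all were well above background on every array. The signals were 2992, 2844 and 1712 in the juvenile pools for CUST_49427, at least 119-fold above the umbonal stage, and 1315, 1069 and 1048 for CUST_43006, with a log2 change of 5.66 (SE 0.44). CUST_42173 had 57880, 56870 and 56480 in the juvenile pools and a log2 change of 10.62 with a wide error (SE 1.15). That error draws on the spread of all stages, with an SD of 3.51 in eggs but 0.04 in juveniles and 0.35 in umbonal larvae. The egg pools of CUST_42173 were far apart. Pool 3 stood at 9.52, well above background, and pools 1 and 2, at 4.36 and 2.81, were not above background. None of the 4 additional probes could be tested at T/O, D/T or U/D.

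**Figure D4:**
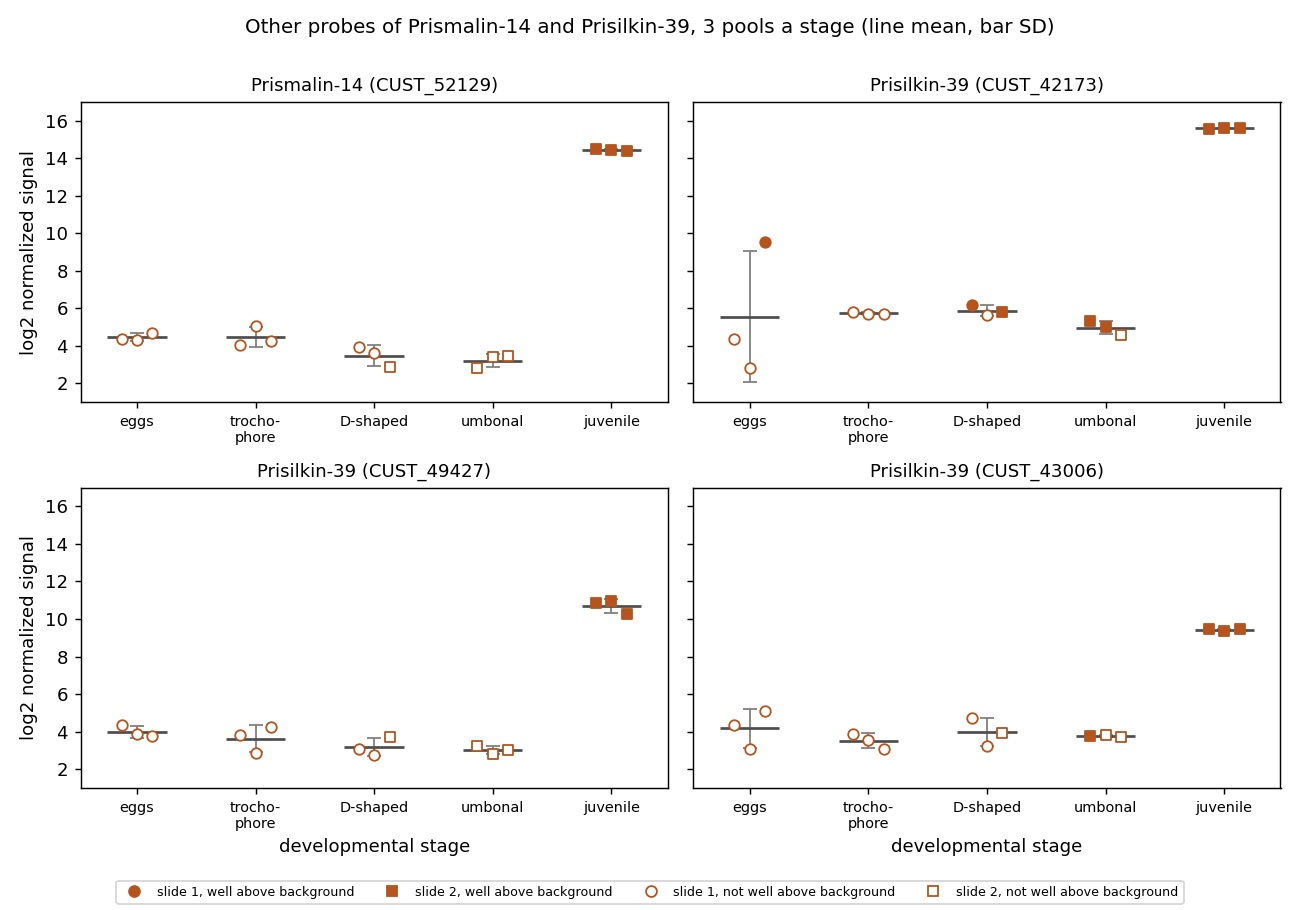
Log2 normalised signal (vertical axis) of the other probes of Prismalin-14 and Prisilkin-39 at the 5 stages (horizontal axis), with 1 point per pool, a line at the mean and a bar for the SD of 3 pools. Circles are slide 1, squares slide 2, and open symbols arrays on which the probe was not well above background. All 4 probes were high in the 3 juvenile pools, and egg pool 3 of CUST_42173 stood at 9.52, apart from the other eggs.

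Other shell matrix genes of the study's list were compared at the same transitions. Among further probes of prismatic layer proteins, the lysine-rich matrix proteins KRMP 1 and KRMP-7 and 3 tyrosinases, enzymes that modify tyrosine and cross-link proteins, 5 of 5 were called higher at J/U, with a median log2 change of 9.10 and a range of 6.07 to 10.36. KRMP-7, with the 10.36, is not in that list. The study named it for its juvenile rise in these samples, so its J/U call is a description and no independent evidence. Of 4 shematrins, glycine-rich proteins assigned to both layers, 4 rose (median 8.59, from 5.97 for shematrin-7 to 11.57 for shematrin-4). Of 4 nacreous layer probes, 4 rose (median 8.75). Pif, which binds aragonite, was at least 677-fold higher in juveniles than in umbonal larvae, and nacrein, a carbonic anhydrase-like protein, changed by 3.20. Across all 26 probes of the list other than the 4 members, 19 of 25 tested rose and 0 fell at J/U, beside 13.5% of all tested probes that rose and 15.9% that fell. Those not called included chitin synthase (log2 change 0.54, adjusted p = 0.11), PFMG12 (0.95, adjusted p = 0.00021, under 2-fold) and the ferritin-like protein (-0.93, adjusted p = 0.01, under 2-fold). The median over the 25 tested probes of the 26-probe list was 6.07. At the earlier transitions the same list held 3 that rose and 1 that fell of 12 tested at T/O, 2 and 4 of 13 at D/T, and 3 and 1 of 14 at U/D. Of the prismatic matrix members, 0 of 2 tested were called at T/O, 0 of 3 at D/T and 0 of 3 at U/D, and the 88 kDa protein was not tested at any of these. The difference between the lists was not tested.

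**Figure D5:**
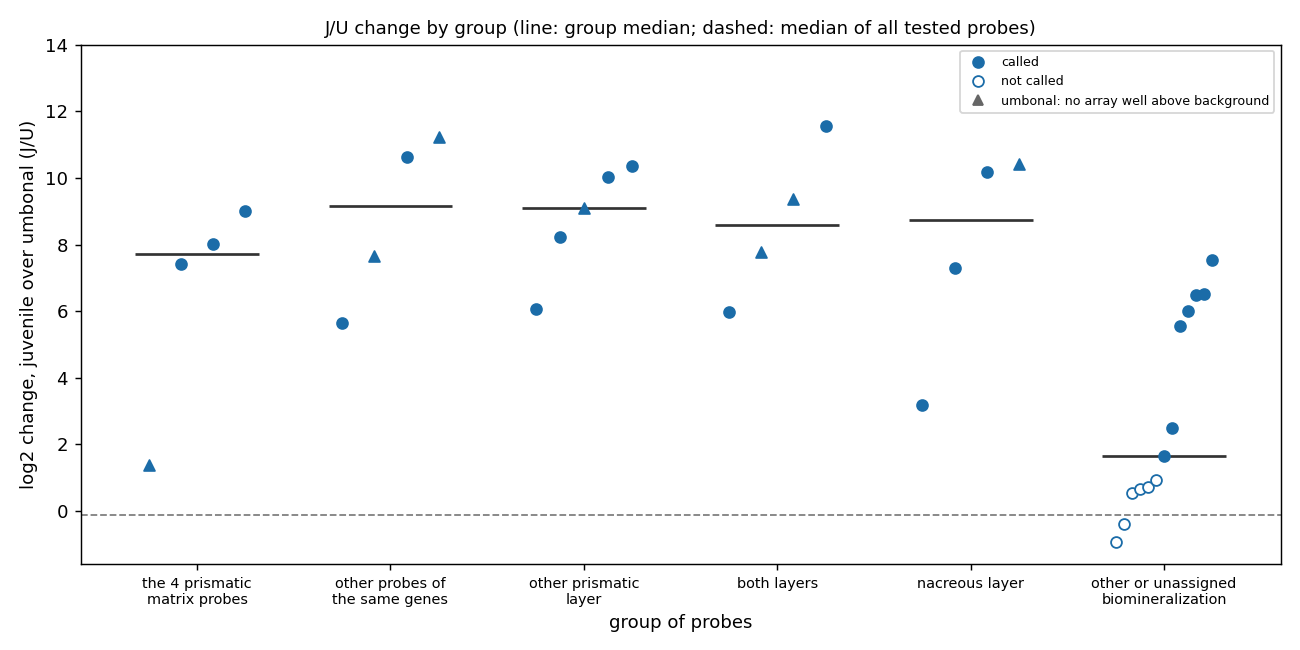
Log2 change of juveniles over umbonal larvae (vertical axis) for each tested probe, by group of probes (horizontal axis), with a line at the median of each group and a dashed line at the median of all tested probes (-0.11). Filled symbols were called, and triangles mark probes that no umbonal array showed well above background, whose fitted change is not a measured ratio. The 4 prismatic matrix probes ranged from 1.37 to 9.01, and the other prismatic layer probes from 6.07 to 10.36.

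The stage profiles of the members were compared by the root mean square difference between their 5 stage means, each centred on its own mean. Prisilkin-39 and the shell matrix protein were the closest pair (0.25), followed by Prismalin-14 with the shell matrix protein (0.45) and with Prisilkin-39 (0.61). The 88 kDa protein was 2.39 to 2.95 from the others. Against 51444 other probes that were well above background in all juveniles, 59 lay within 0.5 of Prismalin-14, 116 within 0.5 of Prisilkin-39 and 93 within 0.5 of the shell matrix protein, but 4345 within 0.5 of the 88 kDa protein. The measure is not scaled by the size of the change, so a profile with small changes lies near every probe that varies little, and the 88 kDa values before the juvenile stage were not well above background.

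By name, the nearest profiles to Prismalin-14 were CUST_52705, which has no annotation, CUST_27373, annotated as similar to a galactosyltransferase, and shematrin-5 (CUST_31), at 0.15, 0.15 and 0.16. Among the listed shell genes, KRMP 1 came next (0.17). All 4 of these probes were well above background on 0 of the 12 earlier arrays, so their earlier stage means lie near background and the order among them is not resolved. The nearest to the shell matrix protein were CUST_15419 with no annotation (0.12), CUST_25750, annotated as a Kunitz-like protease inhibitor (0.12), and CUST_35096, whose unigene holds a chitin-binding domain (0.15), which were well above background on 9, 2 and 3 of the earlier arrays in that order. The nearest to Prisilkin-39 were CUST_42869 (0.15), CUST_1_PI429683413 (0.15) and CUST_48127 (0.16), with no annotation in the sources used here and with 2, 11 and 0 such arrays. Among the listed shell genes another of its own probes, CUST_49427, (0.22) and shematrin-6 (0.34) were nearest, with 0 and 1. The nearest to the 88 kDa protein were CUST_31067 (0.02), CUST_35353 (0.05) and CUST_45067 (0.06), with 12, 9 and 0 such arrays. PFMG1/7 (0.42, all 12 arrays) was the nearest listed shell gene. Since every probe was compared over 5 stage means of the same arrays, these values describe likeness of profile in these pools.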

How the data were processed

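Scanner files of 15 one-colour Agilent arrays, 3 pools at each of 5 stages, were used. Per the file headers, the intensity values were made by Feature Extraction 11.5.1.1, which subtracted background and detrended each array, with no normalisation between arrays. The log2 values of the table deposited by the authors equalled the log2 processed signal minus a constant per array, its 75th percentile, over 58583 probes. Outlier and control spots were left out, and spots of the same probe were averaged. A probe with several spots was taken as well above background where its mean flag over the remaining spots was 0.5 or more. Values were quantile-normalised over 58883 probes and fitted with limma 3.58.1 in R 4.3.3, with 1 mean per stage. The study's methods name the SAM software, which was not run, and limma stands in its place. The members and the gene lists were chosen with earlier results of these data known. The text names the members, other probes of the same genes, the listed shell genes and the nearest profiles (3 per member and 2 among the listed shell genes). The fits were tested on simulated data. Alternatives comprised scaling, background correction, filters, lower bounds, unadjusted p, array subsets, blocks and arrays left out. The normexp correction (offset 50) used median spot signals, since mean signals are not in the files used here. Comparisons D/O and U/O of Prismalin-14 under alternatives were added after seeing the data. No sequences were used here.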

Additional observations from a re-analysis of the deposited data

How the results depend on the processing

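The J/U rises of Prismalin-14, Prisilkin-39 and the shell matrix protein kept their direction and their call in all alternatives run, with log2 changes of 7.79 to 9.01, 6.77 to 7.41 and 7.33 to 8.01, and with each array left out 8.94 to 9.07, 7.25 to 7.54 and 7.90 to 8.16. For the 88 kDa protein the J/U change was 0.42 with normexp on the median signal and no longer called, so that 3 members were called at J/U there, and 1.25 to 1.49 with arrays left out, giving 3 to 4 members called. At J/T it was 2.03 with the percentile shift, 2.04 with the authors' processed values and 2.87 with spike-in scaling, and called. Its J/D call was lost with normexp (0.41), with dim values at their lower bound (0.50) and with the slide as a block (1.25), and its J/O call with normexp (0.03), with only the 6 arrays (1.08) and with the slide as a block (1.26). It turned to -1.06 at J/O and -0.41 at J/T once dim values were raised to the lowest signal well above background. Where all 6 arrays had to be well above background, Prismalin-14 and the 88 kDa protein could not be tested at J/O, and the 2 members tested were called. At T/O, 0 to 2 members were called with arrays left out.

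Directions of changes that were not called turned at the early transitions. Spike-in scaling gave 0.10 for Prisilkin-39 and 0.57 for the shell matrix protein at T/O, 0.39 for Prismalin-14 at D/T, and 0.30, 0.14 and 0.068 for Prismalin-14, Prisilkin-39 and the shell matrix protein at U/D. The percentile shift and the authors' processed values both gave 0.10 for the shell matrix protein at T/O. For Prismalin-14, normexp gave 0.015 at D/T and 0.053 at U/D, and the slide as a block or the slide holding both stages gave 0.036 at D/T and 0.70 at U/D. With arrays left out its values ran between -0.67 and 0.036 at D/T and between -0.69 and 0.014 at U/D. Its D/O and U/O changes did meet the rule for a call with quantile normalisation (-1.19 and -1.42). They turned to 0.78, not called, and 1.08, called, with spike-in scaling. No fit within a slide could be made for J/O or J/T, since no slide holds both stages.

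Counts of probes called fell to 12667 at T/O, 19467 at J/O and 18929 at J/T, against 20312, 34032 and 29224, with all 6 arrays required above background, and to 10206 at U/D and 9604 at J/U, against 15364 and 15417, with normexp. The share of calls that were higher at J/U was 58.9% with the percentile shift and 45.8% with quantile normalisation. At D/T it was 83.1% with spike-in scaling and 50.3% with quantile normalisation. The replicate numbers did not pair the pools (correlations of deviations -0.20 to 0.11 over 21 pairs). With the replicate number as a block, members called at J/U stayed at 4 and at J/O at 4.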
